A study of Homo sapiens with 6 samples.

Results

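The receptors of the EGFR family, the ligands of EGFR, and receptor tyrosine kinases that can signal beside them were followed in RNA-seq of OVCAR5 and OVCAR5R cells. The members were chosen by gene symbol. They are the receptors EGFR, ERBB2, and ERBB3, the ligands AREG, EREG, HBEGF, and TGFA, and the receptors MET, AXL, and IGF1R. All 10 were present among the 12308 rows of the deposited table, and all 10 passed the filter on low values. OVCAR5 is a BRCA wild-type line of ovarian cancer, and OVCAR5R is the line derived from it by culture in rising concentrations of the CHK1 inhibitor prexasertib (Prex) up to 3 µM. OVCAR5R was kept at 2 µM of Prex and grown for 4 days or more without it before use. Both lines were cultured in RPMI1640 with 10% serum and 5 µg/ml of bovine insulin, and total RNA came from 3 cultures of each. OVCAR5R is a single derived line, and whether it was a clone is not stated in the sources used here. The replicates are labelled as cultures of these lines, and p-values measure the spread between cultures.

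EGFR, ERBB2, and ERBB3 are cell-surface tyrosine kinases that work as pairs. EGFR binds ligands that are made as membrane proteins and released by metalloproteases, ERBB2 has no known soluble ligand, and ERBB3 has little kinase activity of its own and recruits PI3K when a partner phosphorylates it. MET, AXL, and IGF1R bind other ligands but feed the same RAS/ERK and PI3K/AKT pathways, so that they are known as bypass receptors when cancer cells become resistant to inhibitors of EGFR. Amphiregulin and epiregulin, the products of AREG and EREG, are ligands whose expression EGFR signaling is itself known to raise.

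The libraries held between 35826706 and 55065046 estimated reads on the listed genes. The normalized signal summed to between 937274 and 1038240 per library and was not divided by gene length. OVCAR5 replicate 2 stood apart from the other libraries. Against the mean of OVCAR5 replicates 1 and 3 it differed by more than 1 on the log2 scale for 1673 of 11766 genes tested (14.2%) and for 7 of the 10 members. Across all genes tested, its log2 signal had a Pearson correlation of 0.898 and 0.883 with OVCAR5 replicates 1 and 3, which had 0.955 with each other and up to 0.947 with an OVCAR5R library. The labels name it OVCAR5, and whether its cells were of the same line and state as the others was not tested, so each OVCAR5 mean is to be read with that doubt. Of the 7 epithelial markers in the table, 6 were highest in this library and WT1 was lowest. EPCAM had a signal of 597 there against 15.9 and 11.9 in OVCAR5 replicates 1 and 3 and 16.3 to 31.7 in OVCAR5R. KRT19 had 1341 against 9.99 and 10.7, and 3.09 to 6.04 in OVCAR5R. KRT7 had 939 against 85.8 and 92.7, and 431 to 583 in OVCAR5R. Its log2 fold change in OVCAR5R was 1.31 (SE 0.82, limma adjusted p = 0.611) with all libraries. In a fit of the markers without OVCAR5 replicate 2, added after seeing the data, it was 2.44 (SE 0.21, limma adjusted p = 0.0185). In that fit EPCAM, KRT8, and KRT18 were also higher in OVCAR5R (0.61, 0.82, and 0.64). KRT19 and PAX8 were lower (-1.12 and -0.76). The limma adjusted p of these other markers was 0.262 to 0.555. Over the 7 epithelial markers, the summed signal was 16856 in OVCAR5 replicate 2, 2265 and 2333 in the other OVCAR5 libraries, and 3542 to 4721 in OVCAR5R. KRT8 was at 1031 or more in every library. PAX8, a marker of the Müllerian lineage, had a signal of 8.38 to 11.4 in OVCAR5 and 4.38 to 5.66 in OVCAR5R, and WT1 was at 0.0290 in OVCAR5 replicate 2 and at 0.727 or less elsewhere. CDH1 and MUC16 were also listed but were not matched to a row of the deposited table. Of 5 fibroblast markers listed, 2 were in the table, COL1A1 and PDGFRB, which summed to between 1.77 and 15.3 per library. Of 6 leukocyte and endothelial markers listed, 1 was in the table, CD14, with a signal of 2.02 to 20.2. The highest value of each list was in OVCAR5 replicate 2. In bulk RNA, fewer cells of a type and less RNA per cell cannot be told apart. The members are therefore also given without OVCAR5 replicate 2 where that library moves their values.

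Between the cell lines, the counts of members past each threshold were near the background of all genes or below it. The signal of EREG was lower in every OVCAR5R library than in every OVCAR5 library, whereas the other 9 members overlapped. With limma, 0 of the 10 members passed an adjusted p of 0.05, the threshold used throughout, in either direction. Of all genes tested 14 did (0.119%), 12 lower (0.102%) and 2 higher (0.017%) in OVCAR5R. At an unadjusted p under 0.05 limma had 1 member, EREG, against 10.4% of all genes tested, and limma's voom on estimated reads had 0 and 1 member by the same thresholds. The members without overlap, 1 of 10, compare with 16.6% of all genes tested (8.18% lower and 8.4% higher in OVCAR5R). The median log2 fold change was -0.20 over the members and -0.01 over all genes tested, with 5 members higher and 5 lower in OVCAR5R by their mean. Pooled over the lines, all 10 members varied more between cultures than the median gene, whose pooled SD was 0.33 on the log2 scale. The pooled SD includes OVCAR5 replicate 2. ERBB2 had an SD of 1.32 in OVCAR5 and 0.32 in OVCAR5R, and ERBB3 had 2.55 and 0.40. MET, with 0.15 and 0.49, had the wider spread in OVCAR5R.

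**Figure D1:**
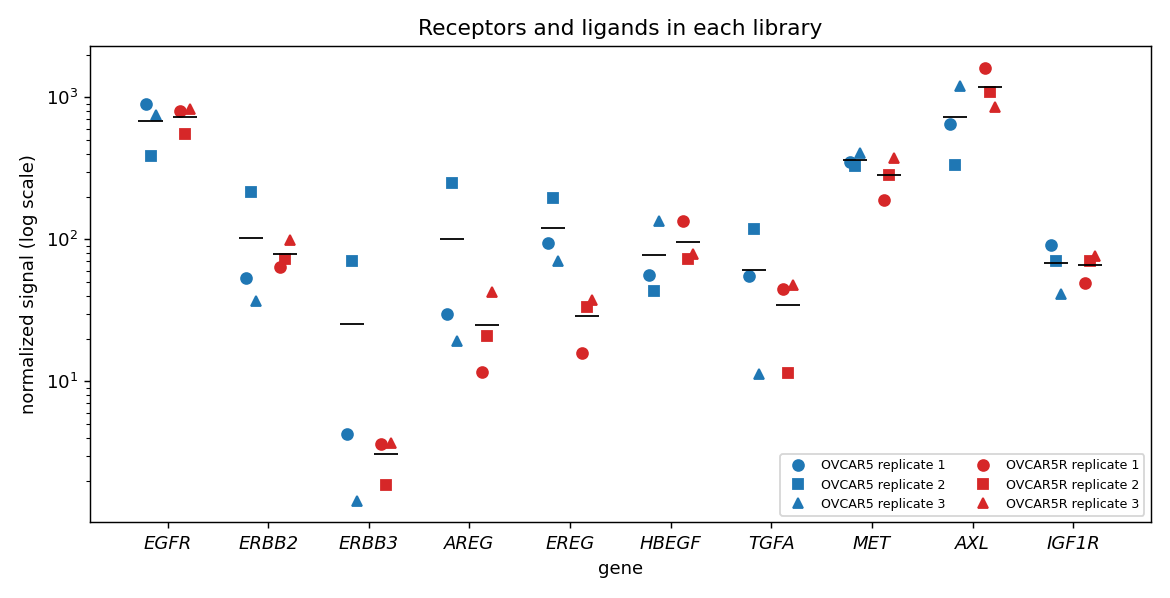
Normalized signal (log axis) of the 10 genes in each of the 6 libraries, with OVCAR5 in blue, OVCAR5R in red, a marker shape per replicate number, and a line at the mean of each cell line. EREG is the gene whose red and blue points do not overlap, and OVCAR5 replicate 2 (blue squares) is far above the other libraries for ERBB3 (70.6) and AREG (251).

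Among the ligands, EREG encodes epiregulin, a ligand of EGFR and ERBB4. The gene spans 74365143 to 74388751 on the plus strand of chromosome 4 (GRCh38, as all positions here). Replicates 1, 2, and 3 had a normalized signal of 93.8, 195, and 69.9 in OVCAR5 and of 15.7, 33.5, and 37.1 in OVCAR5R. The means were 120 ± 66.6 and 28.8 ± 11.4 (SD, n = 3 each). The highest OVCAR5R library was thus below the lowest OVCAR5 library, and OVCAR5 replicate 2 was the highest of all. The log2 fold change was -1.97, which is 3.92-fold lower, with an SE (standard error) of 0.44 and a 95% interval of -2.99 to -0.95 (limma). The unadjusted p was 0.00211, rank 106 of 11766 genes, and the adjusted p was 0.232 (limma). An exact two-sided permutation test gave p = 0.1, the smallest that 3 against 3 libraries allow. Without OVCAR5 replicate 2 the log2 fold change of EREG was -1.55 (SE 0.37, limma adjusted p = 0.210). Between 834 and 6748 estimated reads lay behind these values, so counting error was small beside the spread between cultures.

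AREG, the gene of amphiregulin, lies next to EREG on chromosome 4 from 74445134 to 74455009 (plus strand). AREG signal was 30.0, 251, and 19.2 in OVCAR5 and 11.6, 20.9, and 42.3 in OVCAR5R, in the order of the replicates. OVCAR5 replicate 2 was far above all other libraries, and the rest of the OVCAR5 libraries lay within the range of OVCAR5R. AREG had a log2 fold change of -1.24 (SE 0.89, limma adjusted p = 0.655) with all libraries and -0.13 (SE 0.49, adjusted p = 0.947) without OVCAR5 replicate 2. AREG and EREG thus shared their highest library but not their order in the others, since OVCAR5R replicate 3 was above OVCAR5 replicates 1 and 3 for AREG and below them for EREG.

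The sequences 250 bases upstream of EREG and AREG are shown because the genes are neighbors and EREG is the member whose cell lines did not overlap. They were taken from RefSeq (GRCh38.p14, plus strand, 5′ to 3′), chr4:74364895-74365144 for EREG and chr4:74444886-74445135 for AREG, and end at the base before the RefSeq start. Capitals mark matches on either strand to the TATA box, the cyclic AMP response element (CRE), the GC box, and the TEAD motif, whose letters are given after the sequences.
EREG: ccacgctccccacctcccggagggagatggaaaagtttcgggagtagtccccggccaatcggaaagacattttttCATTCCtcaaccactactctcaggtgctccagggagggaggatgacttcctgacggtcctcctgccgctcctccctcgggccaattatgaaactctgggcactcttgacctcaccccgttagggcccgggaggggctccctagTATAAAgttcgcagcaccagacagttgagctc
AREG: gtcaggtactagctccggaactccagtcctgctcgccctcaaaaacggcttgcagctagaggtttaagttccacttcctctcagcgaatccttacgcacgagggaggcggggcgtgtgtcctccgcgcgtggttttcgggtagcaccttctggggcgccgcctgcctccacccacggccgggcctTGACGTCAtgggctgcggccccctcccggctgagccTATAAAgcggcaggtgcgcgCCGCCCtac
Both windows hold the TATA box letters TATAAA, which begin 32 bases before the start in EREG and 29 bases before it in AREG. Of 35116 RefSeq windows of the same length, 10.7% hold these letters on either strand. The CRE, TGACGTCA, found in 1.65% of the windows, lies 65 bases before the start of AREG and has no match in the EREG window. The TEAD motif, GGAATG, found in 11.9% of the windows, is matched on the opposite strand 175 bases before the start of EREG, and the GC box, GGGCGG, found in 42.6%, is matched on the opposite strand 9 bases before the start of AREG. Neither window matches TGANTCA (AP-1, found in 6.57% of the windows) or the E-box letters CACGTG (6.34%). The motifs do not overlap each other in these windows. A match describes the letters only and is not evidence of binding.

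HBEGF (chromosome 5, 140332843 to 140346631, minus strand) encodes heparin-binding EGF-like growth factor, a ligand of EGFR and ERBB4. Across replicates 1, 2, and 3 its signal was 55.8, 43.3, and 134 in OVCAR5 and 136, 73.2, and 78.6 in OVCAR5R. OVCAR5 replicate 3 lay with the highest OVCAR5R library, and the other OVCAR5 libraries were below all of OVCAR5R. Its log2 fold change was 0.42 (SE 0.43, limma adjusted p = 0.774) with all libraries and 0.09 without OVCAR5 replicate 2. TGFA (chromosome 2, 70447280 to 70554193, minus strand) encodes TGF-alpha, a ligand of EGFR, and had a signal of 54.8, 117, and 11.3 in OVCAR5 and 44.9, 11.4, and 47.5 in OVCAR5R. The lowest library of each line was almost the same, and the spread within each line was wider than the difference between them. For TGFA the log2 fold change was -0.52 (SE 0.84, limma adjusted p = 0.864) with all libraries and 0.21 without OVCAR5 replicate 2.

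Taken per kb of exon, so that genes can be compared, the mix of these 4 ligand transcripts differed between libraries. EREG made up 25.6%, 15.2%, and 17.3% of the summed level in the OVCAR5 libraries and 4.31%, 13.0%, and 9.58% in those of OVCAR5R, without overlap. HBEGF made up 28.8%, 6.38%, and 62.9% in OVCAR5 and 70.5%, 53.8%, and 38.4% in OVCAR5R. AREG was the largest ligand in OVCAR5 replicate 2 with 67.9% and made up 11.0% to 37.9% in the other libraries. The level of HBEGF was 0.419 to 3.63 times that of EREG in OVCAR5 and 4.01 to 16.3 times in OVCAR5R. These shares rest on the same values as the single genes. Of 11 shares, sums, and ratios compared between the lines by exact two-sided permutation tests, the EREG share and the ratio of HBEGF to EREG gave p = 0.1, the smallest possible, with a Benjamini-Hochberg adjusted p of 0.55. The HBEGF share gave an exact p of 0.3 (adjusted 0.66), the AREG share 0.6, the TGFA share 0.9, and the summed ligand level 0.2 (adjusted 0.55). The summed level of the 4 ligands was 225 per kb in OVCAR5 replicate 2 and between 45.0 and 70.5 per kb in the other 5 libraries.

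**Figure D2:**
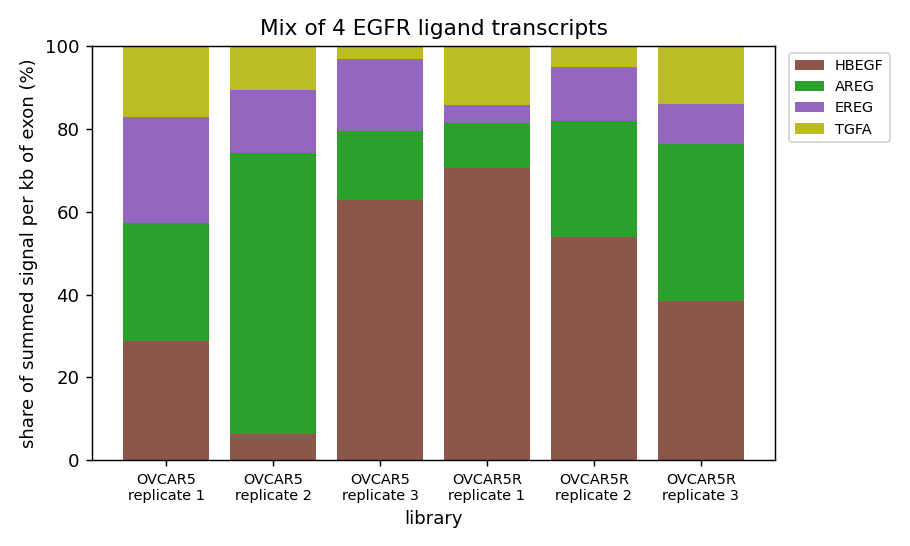
Share (%) of the summed signal per kb of exon taken by HBEGF, AREG, EREG, and TGFA in each library. The EREG segment spans 15.2% to 25.6% in OVCAR5 and 4.31% to 13.0% in OVCAR5R, and AREG dominates OVCAR5 replicate 2.

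Among the family receptors, EGFR on chromosome 7 (55019021 to 55211628, plus strand) had a signal of 902, 387, and 758 in OVCAR5 and 803, 549, and 832 in OVCAR5R. The OVCAR5R libraries lay within the range of OVCAR5, and replicate 2 was the lowest in each line. EGFR had a log2 fold change of 0.16 with a 95% interval of -0.64 to 0.96 (SE 0.35, limma adjusted p = 0.907), and it turned to -0.21 without OVCAR5 replicate 2. With so wide an interval, the values do not show that the lines are alike. EGFR shares 186 bases of exon with EGFR-AS1 on the opposite strand, and whether counting used strand is not stated in the sources used here.

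ERBB2 (chromosome 17, 39687914 to 39730426, plus strand) had a signal of 53.1, 215, and 37.0 in OVCAR5 and 63.6, 73.3, and 98.4 in OVCAR5R. The OVCAR5R libraries lay above OVCAR5 replicates 1 and 3 and below OVCAR5 replicate 2. ERBB2 accordingly had 0.03 as log2 fold change (SE 0.58, limma adjusted p = 0.993) with all libraries, 0.78 (SE 0.27, adjusted p = 0.363) without OVCAR5 replicate 2, and -0.47 without OVCAR5 replicate 3. ERBB2 shares 571 bases of exon with MIEN1 and 194 with PGAP3 on the opposite strand, so reads in these parts cannot be told apart without strand. ERBB3 (chromosome 12, 56076799 to 56103505, plus strand) had a signal of 4.29, 70.6, and 1.44 in OVCAR5 and 3.64, 1.86, and 3.67 in OVCAR5R. OVCAR5 replicate 2 was 24.6 times the mean of the other OVCAR5 libraries, and all other libraries were low. The log2 fold change of ERBB3 was -1.30 (SE 1.08, limma adjusted p = 0.706) and 0.14 (SE 0.44, adjusted p = 0.936) without that library. ERBB3 shares 31 bases of exon with the protein-coding gene AC034102.2 on the same strand, so strand cannot tell reads in this part apart. ERBB2, ERBB3, AREG, EREG, and TGFA were thus highest in OVCAR5 replicate 2, in which 6 of the 7 epithelial markers were also highest, and the part of this state in their values was not tested.

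Per kb of exon, EGFR made up 92.8%, 51.9%, and 94.2% of the EGFR, ERBB2, and ERBB3 transcripts in the OVCAR5 libraries and 90.7%, 85.7%, and 87.0% in OVCAR5R. ERBB2 made up 8.71% to 13.9% in OVCAR5R against 6.62% and 5.58% in OVCAR5 replicates 1 and 3 and 34.9% in OVCAR5 replicate 2. ERBB3 was at 0.611% or less in every library except OVCAR5 replicate 2 (13.1%). By the length of the longest transcript instead, EGFR made up 41.5% and ERBB2 45.9% in OVCAR5 replicate 2, and EGFR 78.6% to 90.9% in the other libraries. EGFR was therefore the main family receptor transcript by either length in 5 of the 6 libraries.

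The bypass receptors overlapped between the lines. AXL, the receptor of GAS6, lies on chromosome 19 (41219203 to 41261766, plus strand) and had a signal of 651, 332, and 1199 in OVCAR5 and 1623, 1098, and 858 in OVCAR5R. OVCAR5R was above OVCAR5 replicates 1 and 2, and OVCAR5 replicate 3 lay between the OVCAR5R libraries. The log2 fold change of 0.85 was the highest of the members (SE 0.46, 95% interval -0.21 to 1.91, adjusted p = 0.557, limma). It was 0.38 without OVCAR5 replicate 2 and 1.31 (adjusted p = 0.231) without OVCAR5 replicate 3. AXL shares 67 bases of exon with an antisense transcript.

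MET, the receptor of hepatocyte growth factor, lies on chromosome 7 (116672390 to 116798386, plus strand). Its signal was 352, 330, and 404 in OVCAR5 and 191, 283, and 375 in OVCAR5R. The OVCAR5 libraries were close together, and OVCAR5R spread from below them to within them. For MET the log2 fold change was -0.40 (SE 0.27, 95% interval -1.03 to 0.22, adjusted p = 0.636, limma). IGF1R (chromosome 15, 98648539 to 98964530, plus strand), the receptor of insulin-like growth factors, had a signal of 91.5, 70.5, and 41.1 in OVCAR5 and 49.4, 71.0, and 76.5 in OVCAR5R. The ranges of both lines almost coincided, and the log2 fold change was 0.00 with a 95% interval of -0.74 to 0.75 (SE 0.32, limma adjusted p = 0.997). The medium of all cultures held insulin, which is the ligand of the related receptor INSR. Whether the insulin also acted on IGF1R was not tested.

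**Figure D3:**
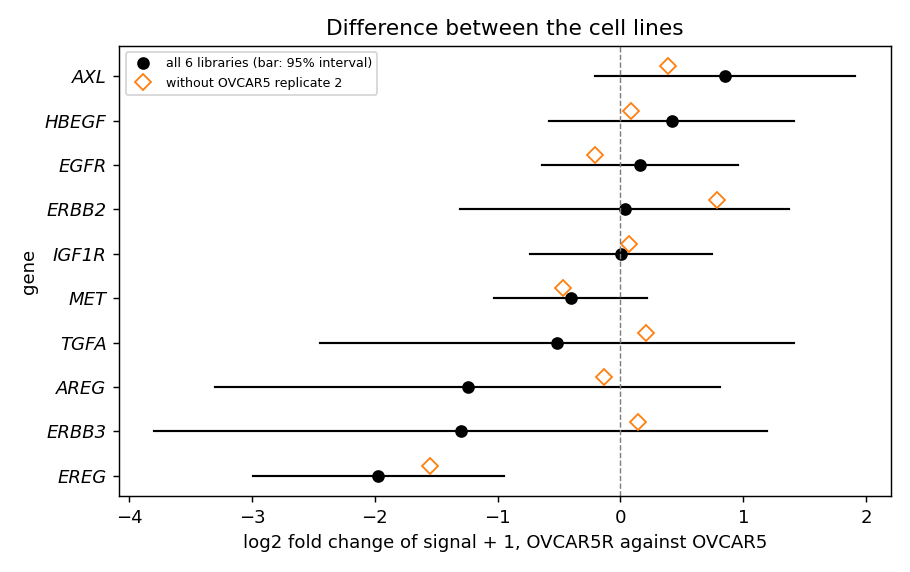
Log2 fold change of the signal + 1 in OVCAR5R against OVCAR5 for the 10 genes, with 95% intervals from limma (black) and the value without OVCAR5 replicate 2 (open orange diamonds). The interval of EREG (-2.99 to -0.95) is the one that does not reach 0, before adjustment for all genes tested. Without that library the values of EREG, AREG, HBEGF, and AXL move towards 0, and those of ERBB3, TGFA, and EGFR pass it. ERBB2, MET, and IGF1R move away from 0.

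Ordered by signal per kb of exon, AXL led in both lines, with mean levels ± SD over 3 libraries of 141 ± 85.1 in OVCAR5 and of 232 ± 75.9 in OVCAR5R. In OVCAR5R it was followed by EGFR with 58.2 ± 12.4, MET with 40.2 ± 13.1, and HBEGF with 31.7 ± 11.5 per kb. AREG, ERBB2, TGFA, EREG, and IGF1R came next, between 15.1 and 4.71 per kb, and ERBB3 was last with 0.338 ± 0.114. In OVCAR5, AREG with 60.8 ± 79.5, EGFR with 54.5 ± 21.2, and MET with 51.4 ± 5.35 came after AXL, and EREG was the sixth at 20.9 ± 11.7 per kb, where it was the eighth in OVCAR5R at 5.03 ± 2.00. AREG held its place in OVCAR5 through replicate 2 alone, in which it had 153 per kb against 64.5 for AXL. Without that library AREG had a mean of 14.9 per kb and followed AXL (179), EGFR (66.3), MET (53.7), and HBEGF (31.4), the order of these 5 in OVCAR5R. EREG was still the sixth in OVCAR5, at 14.3 per kb. Most neighbors in these orders overlapped between libraries. The exceptions were MET above HBEGF in OVCAR5, and AXL above EGFR and IGF1R above ERBB3 in OVCAR5R. Per kb, the level of AXL was 1.75, 2.09, and 3.84 times that of EGFR in OVCAR5 and 4.91, 4.86, and 2.51 times in OVCAR5R.

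To compare the members with their chromosome regions, each was set beside the tested genes that start within 10 Mb on either side. EREG and AREG had 57 neighbors each, the other of the pair included, of which 70.2% were lower in OVCAR5R, with a median log2 fold change of -0.28. Relative to the OVCAR5 mean, the neighbors had medians of -0.43, -0.52, and 0.02 in OVCAR5R replicates 1, 2, and 3. EREG had -2.71, -1.67, and -1.53 there, and AREG had -2.10, -1.31, and -0.32. The OVCAR5 mean includes OVCAR5 replicate 2, in which AREG was at 2.22, EREG at 0.84, and the median of the neighbors at -0.12. Without that library the log2 fold change was -0.13 for AREG and -1.55 for EREG. With all libraries, the log2 fold change of EREG minus the median of its neighbors was -1.69. Of the 57 genes, 1 had a log2 fold change as low as that of EREG. In OVCAR5R replicate 3 the neighbors had a median of 0.02 and EREG -1.53. The part of the chromosome region in the value of EREG was not tested. MET and the median of its neighbors were both lowest in OVCAR5R replicate 1. The 30 neighbors of MET had medians of -0.79, -0.02, and -0.08 in OVCAR5R replicates 1, 2, and 3, and MET had -0.91, -0.35, and 0.06. The part of the chromosome region in the value of MET was not tested. The 276 neighbors of AXL had a median of 0.04 and the 22 neighbors of EGFR a median of 0.04.

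**Figure D4:**
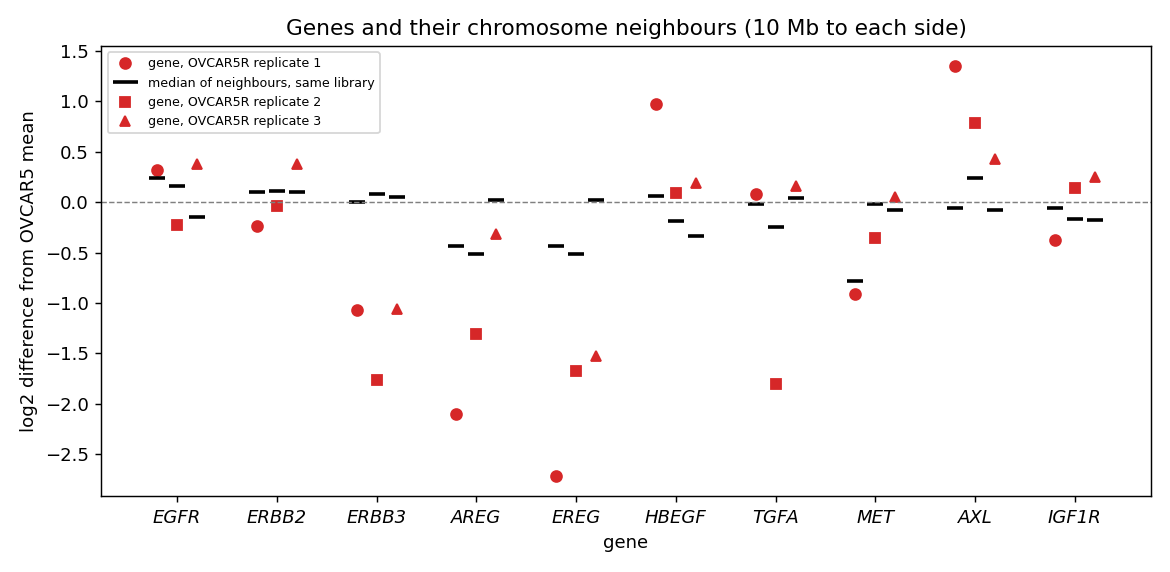
Log2 difference from the OVCAR5 mean in each OVCAR5R library for the 10 genes (red markers) and the median of the tested genes within 10 Mb (black bars). For MET the gene and its neighbors lie close in OVCAR5R replicate 1 (-0.91 and -0.79) and less so in OVCAR5R replicate 2 (-0.35 and -0.02). EREG, AREG, and ERBB3 lie below the median of their neighbors in every OVCAR5R library. The OVCAR5 mean includes OVCAR5 replicate 2, in which EREG was at 0.84, AREG at 2.22, and ERBB3 at 2.88.

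Other genes of the same pathways were taken from 8 lists of 80 genes, of which 52 were in the table and 48 were tested. By limma 0 of these 48 passed the adjusted threshold in either direction (0 also with voom), and 4 had an unadjusted p under 0.05 (8.33%, against 10.4% of all genes tested). Their median log2 fold change was -0.16. Without overlap, 4 genes were higher and 2 lower in OVCAR5R, which is 12.5% of the 48 against 16.6% of all genes tested. These 6, named after their values were seen, were GRB2, SHC1, PROS1, and FGFR4 above and GAS6 and IRS2 below.

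The TAM axis holds the receptors related to AXL and their ligands. GAS6 had a signal of 42.9, 45.6, and 68.7 in OVCAR5 and 25.7, 18.2, and 15.7 in OVCAR5R, so every OVCAR5R library was below OVCAR5. Its log2 fold change was -1.35 (SE 0.27, limma adjusted p = 0.181). PROS1, which encodes protein S, a ligand of the related receptors TYRO3 and MERTK, had a signal of 5.36, 4.92, and 2.31 in OVCAR5 and 11.2, 6.50, and 8.94 in OVCAR5R, with a log2 fold change of 0.96 (SE 0.35, adjusted p = 0.407). The 2 ligands thus lay on opposite sides without overlap and did not pass the test. TYRO3 and MERTK, the other receptors of this axis, had log2 fold changes of 0.24 and -0.46.

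Of the further ERBB ligands, EGF had a signal of 19.8, 15.0, and 8.46 in OVCAR5 and 3.45, 7.15, and 13.2 in OVCAR5R (log2 fold change -0.87, adjusted p = 0.557, limma), and NRG2, a neuregulin, had a log2 fold change of -0.22. NRG1 was under 1 in every library and was not tested. The proteases and cofactors that release EGFR ligands were between RHBDF2 with -0.37 and ADAM15 with 0.15, and ADAM17, the main protease for AREG, EREG, HBEGF, and TGFA, had -0.28 (adjusted p = 0.774). Adaptors that link receptors to RAS were between GAB1 with -0.57 and SHC1 with 0.28. SHC1 had 380, 322, and 376 in OVCAR5 and 433, 428, and 448 in OVCAR5R, a small difference without overlap (adjusted p = 0.621).

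Among the negative regulators, ERRFI1, an inhibitor that binds the EGFR kinase, had the lowest log2 fold change with -0.71 (SE 0.32, limma adjusted p = 0.493). Its signal was 982, 532, and 457 in OVCAR5 and 343, 488, and 324 in OVCAR5R, so OVCAR5R replicate 2 lay within the range of OVCAR5. LRIG3 was the highest of this list with 0.34. Of the axis of MET, SPINT1, an inhibitor of the proteases that activate hepatocyte growth factor, had 459 in OVCAR5 replicate 2 and 3.81 to 21.3 in all other libraries. Its log2 fold change was -1.12 (limma adjusted p = 0.835) with all libraries and 0.88 (adjusted p = 0.698) without OVCAR5 replicate 2. MST1R, the receptor related to MET, had -0.40 with and 0.09 without that library. In the IGF axis, IGFBP2, which binds insulin-like growth factors, had 36.1, 16.0, and 11.1 in OVCAR5 and 27.8, 39.9, and 57.7 in OVCAR5R (log2 fold change 1.06, adjusted p = 0.456), and IGFBP6 was the lowest with -0.64. Of the other receptor tyrosine kinases, FGFR4 had 24.5, 27.1, and 25.7 in OVCAR5 and 45.6, 44.5, and 33.3 in OVCAR5R (log2 fold change 0.64, SE 0.21, adjusted p = 0.359), without overlap. DDR1, a collagen receptor, was the lowest with -1.15 and had its highest signal, 473, in OVCAR5 replicate 2, without which the log2 fold change was -0.34. IGFBP6 likewise had -0.21 without that library. Of the 48 pathway genes, 10 changed direction without it, and 0 passed the adjusted threshold.

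**Figure D5:**
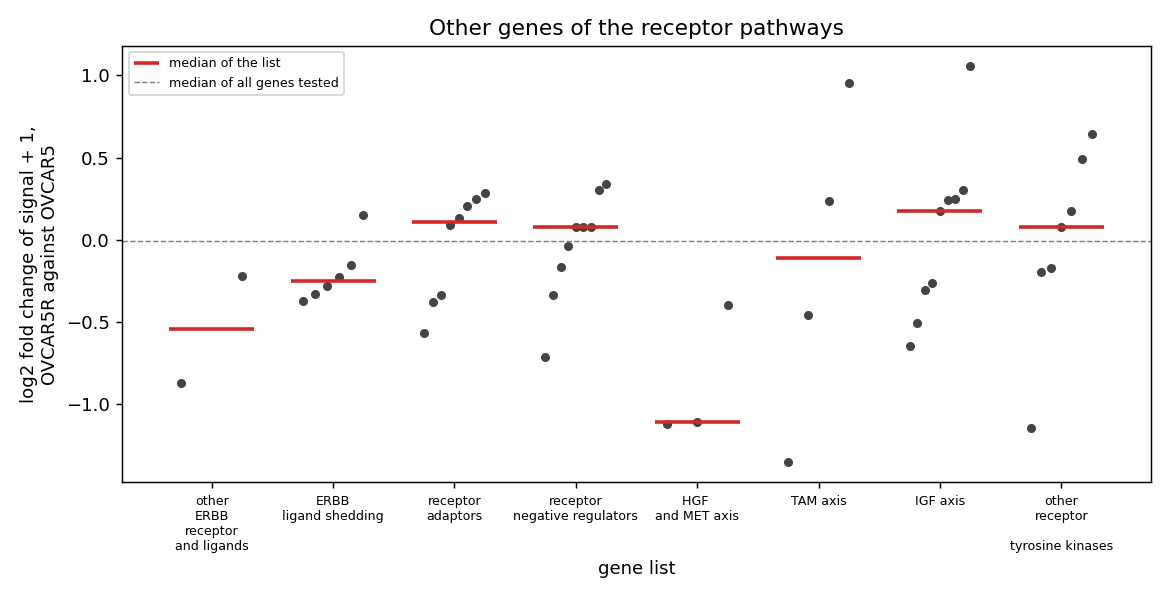
Log2 fold change of the signal + 1 in OVCAR5R against OVCAR5 for the 48 tested genes of 8 pathway lists (points), with the median of each list in red and the median of all genes tested (-0.01) as a dashed line. GAS6 (-1.35) and PROS1 (0.96) span the TAM axis, and 0 of the points passed the adjusted threshold.

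By the shape of their values over the 6 libraries, LNPK and CBL were among the genes most like EGFR, with root mean square differences of 0.06 and 0.07 on the centered log2 scale, where the median gene had 0.53. CBL, a ubiquitin ligase that acts on EGFR, had 131, 52.3, and 102 in OVCAR5 and 106, 68.1, and 115 in OVCAR5R. The genes most like MET were MKL1, RPL23AP82, and CSNK1E with 0.08, 0.10, and 0.10 (median gene 0.49). RPL23AP82 is a pseudogene of a ribosomal protein gene, and its reads may belong to related copies. With 6 libraries and 11766 genes, close matches are found for many genes.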

How the data were processed

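Total RNA of OVCAR5 and OVCAR5R (3 cultures each) had been sequenced, and the analysis started from the deposited table, in which the authors give 1 normalized signal per gene and library on a linear scale. The supplementary methods state quartile normalization, and the submitters' processing notes name the build hg 38. The aligner, counter, annotation, and gene filter are not given in the sources used here. Between 61.6% and 65.3% of the values above 0 were whole multiples (within 0.006) of the smallest step of their library. That step is what 1 estimated read was worth. The main test was therefore not one made for counts, and voom on the estimated reads was run only as an alternative. Of 12309 rows, 1 identical copy was dropped.

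Values were taken as log2(value + 1), which understates fold changes of low genes. The 11766 genes that reached 1 in 3 or more libraries entered limma version 3.58.1 in R version 4.3.3 (eBayes with trend, no covariates, Benjamini-Hochberg over all genes tested, two-sided). The Mann-Whitney test that the study names cannot give a p under 0.1 with 3 against 3 libraries, so exact permutation tests were only given beside it. Intervals are unadjusted 95% intervals from limma. Levels per kb used the union of exons, and positions came from GENCODE 29 on GRCh38, in which 99.42% of the symbols were found. RefSeq promoter windows were found for 9 of the 10 members, and those of 2 are shown. The script was tested on simulated data. Python version 3.11.15 and matplotlib version 3.10.9 were used for the figures.

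The members and lists were chosen with earlier results of these data known. Named genes were the members, the highest and lowest tested gene and any gene past the threshold of each list, and the 3 genes most like EGFR and MET, of which 1 is not reported here. The rule covers the pathway lists only. ADAM17, TYRO3, MERTK, NRG1, GRB2, IRS2, and the cell type markers were named beyond it, after their values were seen. Alternatives were quantile normalization, no trend, 2 other filters, a pseudocount of 0.1, array weights, a block for the replicate number, leaving out single libraries, and, added after seeing the data, voom, the pathway genes and levels without OVCAR5 replicate 2, and receptor shares by longest transcript. The exact tests of shares, sums, and ratios were not among the planned tests. Same-numbered replicates had correlations of deviations of 0.00, 0.18, and -0.12, so the numbers were not taken as pairs.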

Additional observations from a re-analysis of the deposited data

How the results depend on the processing

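With another normalization, filter, pseudocount, variance model, or test, 0 of the 10 members and 0 of the 48 pathway genes passed an adjusted p of 0.05, and the same held with each library left out. EREG stayed lower in OVCAR5R under all 14 alternatives, with a log2 fold change of -2.28 to -1.55 and an adjusted p of 0.146 to 0.485. AREG (-1.95 to -0.13), MET (-0.63 to -0.15), AXL (0.38 to 1.31), and HBEGF (0.09 to 0.89) also kept their direction. The alternatives reuse the same 6 libraries, so a kept sign alone does not settle a direction. Without OVCAR5 replicate 2 the SE was 0.49 for AREG (-0.13), 0.42 for HBEGF (0.09), and 0.36 for AXL (0.38). Without OVCAR5R replicate 1 it was 0.25 for MET (-0.15). With a library left out, EGFR ranged from -0.21 to 0.40, ERBB2 from -0.47 to 0.78, ERBB3 from -2.30 to 0.14, TGFA from -1.43 to 0.21, and IGF1R from -0.31 to 0.26, and EGFR was -0.080 with array weights, so these 5 have no stable direction. Members without overlap numbered 1 to 5 with a library left out, against 24.3% to 33.3% of all genes tested. They were 5 without OVCAR5 replicate 3 (HBEGF and AXL above, EREG, ERBB3, and TGFA below, against 33.3% of all genes tested). They were 2 without OVCAR5 replicate 2 (EREG below and ERBB2 above, against 27.4%) and 2 without OVCAR5R replicate 3 (EREG and MET below, against 24.3%). The 14 genes called over all genes tested became 30 with array weights, 5 with the replicate number as a block, and 0 with voom (1204 at an unadjusted p under 0.05). They were 3 and 29 without OVCAR5 replicates 1 and 2, 4, 2, and 0 without OVCAR5R replicates 1, 2, and 3 (864 at an unadjusted p under 0.05 for the last), and the causes were not tested. The replicate block changed no call among the members. By longest transcript, 8 of the 10 members kept their place in the order of levels in OVCAR5, and 4 did without OVCAR5 replicate 2, where AREG moved down. Without that library SPINT1 turned from -1.12 to 0.88. With 3 cultures a line, the spread between cultures and not the depth sets the precision.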
